A study of Mus musculus with 3 samples.

Results

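External tufted (ET) cells are excitatory neurons of the olfactory bulb (OB) whose cell bodies lie in and just below the glomerular layer. The nuclei described here form a pair of the ET subclusters of one single-nucleus dataset, called ET1-like and ET4-like because their markers match the types that the study named ET1 and ET4. Members were taken from the subcluster numbers that the authors deposited for the projection neuron nuclei, 4 for ET1-like and 3 for ET4-like. They were 703 ET1-like and 883 ET4-like nuclei, together 1586 of 7504 projection neuron nuclei and of 31703 nuclei in all. The nuclei came from 3 adult male C57Bl/6 mice aged 7 weeks, 1 library per mouse, with no other treatment group. All mice carried a retrograde adeno-associated virus, retroAAV-CAG-H2B-GFP, which expresses a nuclear GFP from the broadly active CAG promoter and had been injected into the piriform cortex and the anterior olfactory nucleus. Nuclei of the injected side were sorted for GFP and the DNA dye DRAQ5, so that only neurons that took up the virus, and whatever else passed the gate, were sampled. Mice 1, 2 and 3 gave 147, 442 and 114 ET1-like nuclei, and 225, 552 and 106 ET4-like nuclei. The ET1-like share of the nuclei of both types was 39.5%, 44.5% and 51.8% in mice 1, 2 and 3, with a mean of 45.3% ± 6.19 (SD, n = 3).

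ET cells receive input from the olfactory nerve in the glomeruli, use glutamate as their transmitter and excite other glomerular neurons. Many fire spontaneous bursts, in which hyperpolarization-activated and other voltage-gated currents take part. Mitral and tufted cells together carry odor information out of the bulb, and their types differ in layer, dendrites and cortical targets. Unique molecular identifiers (UMIs), which count RNA molecules and not their amplified copies, were summed over the nuclei of each type in each mouse, which gave 6 libraries of 1431471 to 6076450 UMIs. A level is given in CPM, the UMIs of a gene scaled to 1000000 UMIs in every library, always in the order of mice 1, 2 and 3. The log2 fold change is ET1-like over ET4-like, so that a positive value is higher in ET1-like nuclei. Genes were called with edgeR's quasi-likelihood test with the mouse as a block, where the adjusted p was under 0.05 and the log2 fold change was beyond 1 in either direction. The clusters had been formed from the same counts, so that these p-values describe how the clusters differ in 3 mice and say nothing on whether such types are real.

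The genes that the study lists as specific to ET1 and ET4 served to check the names and are not findings, since they were picked by differential expression between the types in these same nuclei. Coch had 179, 193 and 176 CPM in ET1-like and 47.4, 64.9 and 71.3 CPM in ET4-like nuclei, and Rxfp1, the receptor of the hormone relaxin, had 256, 173 and 174 CPM against 9.17, 2.74 and 39.1 CPM. Ly6g6e had 104, 56.3 and 28.7 CPM in ET1-like and 919, 492 and 567 CPM in ET4-like nuclei. Of the 7 ET1 markers 5 were called higher in ET1-like nuclei, and Tpbgl (log2 fold change 0.95) and Clcf1 (0.73) lay on the same side without passing the 2-fold limit. All 7 ET4 markers were called higher in ET4-like nuclei. With each nucleus thinned to 5000 UMIs, 87.9%, 83.6% and 95.5% of ET1-like nuclei held more ET1 than ET4 markers, and 87.4%, 87.1% and 82.0% of ET4-like nuclei the reverse. Genes of other cells were also found in both types. The summed markers of inhibitory neurons were at 76.8 to 339.5 CPM in ET1-like and 219 to 503.9 CPM in ET4-like libraries, highest in mouse 2 for both. Of these 7 genes, Gad2, which makes GABA from glutamate, was the 1 called, and was higher in ET4-like nuclei (37.2, 37.4 and 10.2 CPM against 113, 104 and 85.9 CPM). Markers of astrocytes summed to 32.6 to 38.8 against 46.9 to 49.8 CPM, those of oligodendrocytes to 78.7 to 100.5 against 74.2 to 83.1 CPM, those of microglia to 31.4 to 41.7 against 32.5 to 46.8 CPM, and those of endothelium to 4.94 to 7.29 against 5.98 to 10.5 CPM. None of the genes of these 4 lists that could be tested was called, and no endothelial gene had enough UMIs for a test. Periglomerular markers summed to 35.5 to 78.7 against 41.9 to 81.8 CPM, with none of the 3 tested called. Those of immature neurons summed to 64.6 to 83 against 39.5 to 69.3 CPM and went both ways, with Dcx called higher in ET1-like nuclei (1.25 ± 0.15) and Sox11 in ET4-like nuclei (-1.16 ± 0.39). The median ET1-like nucleus held 13888, 12430.5 and 17333.5 UMIs and the median ET4-like nucleus 10489, 10003 and 13063 UMIs, in mice 1, 2 and 3. The part of depth and of free RNA in single results was not tested beyond the alternatives named beside them. Mean levels in the 2 largest inhibitory clusters are given beside some genes of either direction, and not beside all.

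ET1-like and ET4-like nuclei differed in genes of many kinds. Of 11730 genes tested, 929 (7.92%) were called higher in ET1-like and 745 (6.35%) higher in ET4-like nuclei, 14.3% in all. Each of the 3 mice had the same direction for 919 and 743 of them, and for 890 and 730 the 3 libraries of the higher type lay above all 3 of the other. Scaling by library size in place of TMM moved the median log2 fold change of all genes from -0.01 to -0.20 and turned the balance of calls from 55.5% to 39.3% higher in ET1-like nuclei (724 against 1116). The excess of calls on the ET1-like side therefore depends on the scaling, and directions below were checked under it. The genes called higher in ET1-like nuclei were longer. Their median length was 80.1 kb for the protein-coding ones, against 26.9 kb for those higher in ET4-like nuclei and 29.9 kb for all tested. A gene on the opposite strand overlapped 44.5%, 35.4% and 39.7% of these sets, and UMIs of such pairs cannot be told apart with certainty, since no source used here says whether counting used the strand.

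**Figure D1:**
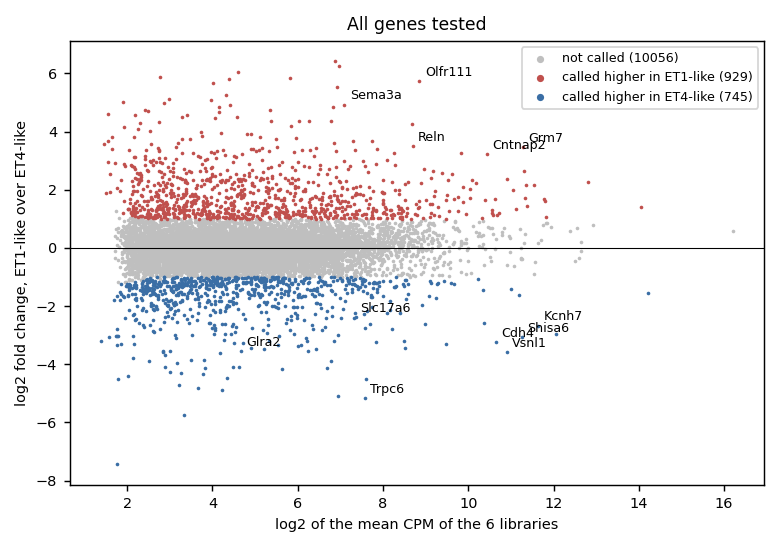
Log2 fold change of each gene (vertical axis) against log2 of its mean CPM over the 6 libraries (horizontal axis), with called genes in colour. The 929 genes above and the 745 below reach over the whole range of levels, and Trpc6 lies far below 0 at a log2 fold change of -5.16.

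Among the steepest differences toward ET1-like nuclei were those of 6 adjacent olfactory receptor genes. Olfactory receptors detect odorants in the sensory neurons of the nose. Olfr110, Olfr111, Olfr112, Olfr113, Olfr114 and Olfr115 lie in this order within 134.6 kb of chromosome 17 (GRCm38 37492468 to 37627109, GENCODE), the first 2 on the plus and the other 4 on the minus strand. Olfr111, which the study lists with Olfr110 as a marker of the T1 tufted type, had 919, 819 and 963 CPM in ET1-like and 14, 9.41 and 53.1 CPM in ET4-like nuclei (log2 fold change 5.73 ± 0.22 (SE), adjusted p = 2.3e-17). Olfr115 had 233, 196 and 308 CPM against 1.99, 2.57 and 8.38 CPM (log2 fold change 6.24 ± 0.18 (SE), adjusted p = 1.2e-19). Olfr112 had 218, 214 and 271 CPM against 1.99, 3.59 and 17.5 CPM, with a log2 fold change of 5.55 ± 0.22. The ET4-like library of mouse 3 was the highest of the ET4-like libraries for each of the 6 genes. The 7 flanking receptor genes from Olfr107 to Olfr119 had at most 8 UMIs in any of the 6 libraries. Of 1093 olfactory receptor genes in the files 10 were tested, and these 6 were the ones called. They held 94.7% of all receptor UMIs of ET1-like nuclei and 27.01% of those of ET4-like nuclei. T1-like nuclei carried the same genes at higher mean levels, 1477 CPM for Olfr111 and 449 CPM for Olfr115, each above its ET1-like mean. In ET2-like nuclei Olfr111 had 45.1, 5.68 and 0.706 CPM and Olfr115 13.9, 1.03 and 0 CPM, highest in mouse 1.

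Receptor genes form a large family, and reads of near-identical members can be counted for one another, which makes the level of a single gene uncertain where copies are close. To show how alike their starts are, the RefSeq windows from 250 bases before to 50 bases after the start were compared, which exist here for 5 of the 6 genes and, by RefSeq's starts, lie inside the longer GENCODE models of Olfr114 and Olfr115. The longest run shared by 2 of the 5 windows was 31 bases, between Olfr114 (chr17:37590302-37590601, minus strand, GRCm38.p6) and Olfr115 (chr17:37610730-37611029, minus strand), and is in capitals below. Olfr113 shared 28 and 22 bases with these, and the 7 pairs that hold Olfr110 or Olfr111 shared 8 to 10 bases. How many UMIs of one were counted for another was not tested, and the gene models of Olfr115 and Olfr116 overlap on the same strand.
Olfr114: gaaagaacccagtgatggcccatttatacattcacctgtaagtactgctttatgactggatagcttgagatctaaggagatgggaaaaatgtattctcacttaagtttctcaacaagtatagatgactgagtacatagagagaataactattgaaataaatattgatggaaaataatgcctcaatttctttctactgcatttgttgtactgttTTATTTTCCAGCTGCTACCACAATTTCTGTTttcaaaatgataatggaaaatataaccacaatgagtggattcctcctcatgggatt
Olfr115: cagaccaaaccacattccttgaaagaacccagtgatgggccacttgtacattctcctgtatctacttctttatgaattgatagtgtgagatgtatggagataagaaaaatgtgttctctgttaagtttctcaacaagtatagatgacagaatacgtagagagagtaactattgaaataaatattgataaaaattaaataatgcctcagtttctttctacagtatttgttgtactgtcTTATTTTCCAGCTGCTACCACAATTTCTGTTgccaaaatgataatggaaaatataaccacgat

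**Figure D2:**
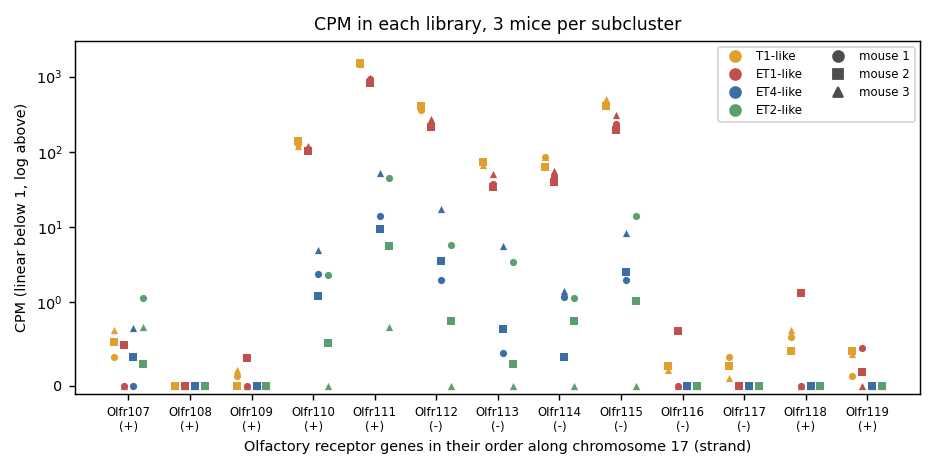
CPM of 13 olfactory receptor genes in their order on chromosome 17, 1 point per mouse and subcluster (circle, square and triangle for mice 1, 2 and 3), on an axis that is linear below 1 and logarithmic above. From Olfr110 to Olfr115 the T1-like and ET1-like libraries stand above all ET4-like and ET2-like libraries, and the flanking genes are near 0 in each.

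Of the other leading genes of ET1-like nuclei several encode signals and cell-surface proteins. Sema3a, a secreted semaphorin that repels growing axons, had 305, 206 and 280.4 CPM in ET1-like and 10.4, 8.38 and 9.78 CPM in ET4-like nuclei (log2 fold change 4.93 ± 0.14 (SE), adjusted p = 7.0e-20). Angpt1, a ligand of the receptor tyrosine kinase Tie2, had 76.7, 66.7 and 92.8 CPM against 1.99, 3.76 and 2.79 CPM (log2 fold change 4.73 ± 0.22 (SE), adjusted p = 1.0e-15). Jam2, a junctional adhesion molecule, had 232, 168 and 255 CPM against 6.38, 7.53 and 11.2 CPM (log2 fold change 4.85 ± 0.15 (SE), adjusted p = 4.6e-19). Ly75, an endocytic receptor known from dendritic cells, had 35.9, 28 and 38.9 CPM against 1.59, 1.2 and 0.699 CPM, and its means in T1-like and ET2-like nuclei were 5.75 and 4.73 CPM. Dysf, the membrane repair protein dysferlin, had 39, 25.8 and 36.9 CPM against 2.39, 0.856 and 1.4 CPM, and A1bg, a secreted glycoprotein, 41.1 ± 8.46 CPM against 0.703 ± 0.814 CPM (SD, n = 3). Gm21949, of unstated function here, and the phosphatase gene Ppm1j had log2 fold changes of 5.27 ± 0.32 and 5.09 ± 0.36. Ppm1j overlaps Fam19a3 on the opposite strand.

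In ET4-like nuclei the leading genes included a channel, a channel subunit and transcription factors. Trpc6, a cation channel opened by diacylglycerol, had 17.5, 8.23 and 2.92 CPM in ET1-like and 402, 392 and 316 CPM in ET4-like nuclei (log2 fold change -5.16 ± 0.18 (SE), adjusted p = 3.0e-18). Kcnmb2, an auxiliary subunit of the large-conductance calcium-activated potassium (BK) channel, had 16.6, 20.1 and 2.43 CPM against 296, 412 and 419 CPM (log2 fold change -4.52 ± 0.21 (SE), adjusted p = 5.6e-16). St6galnac5, a sialyltransferase that acts on glycolipids, had 8.97, 7.08 and 1.46 CPM against 192, 256 and 275 CPM (log2 fold change -5.09 ± 0.20 (SE), adjusted p = 3.3e-17). The ET1-like library of mouse 3 was the lowest of its group for all 3 genes. The zinc finger factor Klf5 had 3.59, 1.65 and 1.94 CPM against 41.9, 43.1 and 41.9 CPM, and the AP-2 factor Tfap2c 2.69, 1.32 and 0.972 CPM against 34.7, 25.3 and 18.2 CPM. Nkd1, an inhibitor of Wnt signaling, had 2.24, 0.987 and 0 CPM against 30.7, 23.3 and 24.4 CPM, and Slc22a4, an organic cation transporter, 1.79, 0.494 and 2.43 CPM against 19.1, 19.9 and 24.4 CPM. Mean levels in T1-like nuclei were 1.65 CPM for Trpc6, 7.06 CPM for Kcnmb2, 2.41 CPM for St6galnac5, 2.96 CPM for Klf5 and 16.5 CPM for Tfap2c. Tfap2c was also at 28.5 and 65.9 CPM on average in M1-like and M3-like nuclei, and St6galnac5 at 48.7 CPM in the former. The remaining leading genes, 9130008F23Rik, Nt5dc2, Ect2l, Fam107b and the guanine nucleotide exchange factor Spata13, had log2 fold changes of -4.87, -4.13, -4.09, -3.87 and -3.62.

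**Figure D3:**
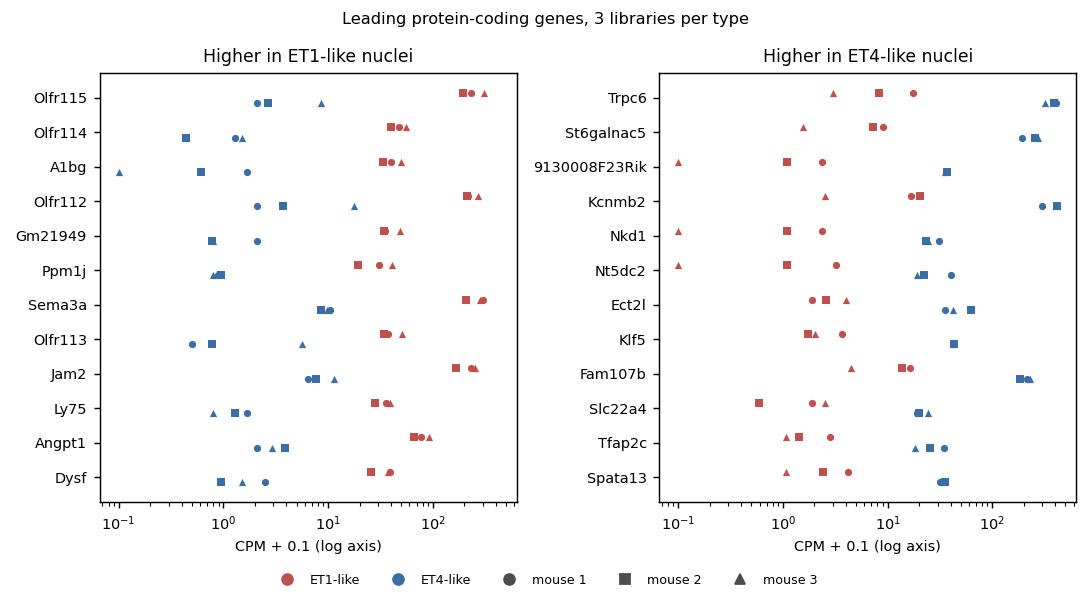
CPM in each library (log axis, with a small constant added so that 0 can be drawn) of the 12 leading protein-coding genes in each direction. Genes were chosen for having no overlap between the types, and Trpc6 stands at 402, 392 and 316 CPM in ET4-like nuclei.

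Both types held transcripts of vesicular glutamate transporters, which load glutamate into synaptic vesicles, but in opposite measure. Slc17a7, encoding VGLUT1, had 338, 231 and 289.6 CPM in ET1-like and 138, 92.1 and 79.6 CPM in ET4-like nuclei (log2 fold change 1.65 ± 0.11 (SE), adjusted p = 1.2e-12). Slc17a6, encoding VGLUT2, had 44.4 ± 5.78 CPM against 277 ± 32.9 CPM (SD, n = 3) (log2 fold change -2.40 ± 0.12 (SE), adjusted p = 2.9e-15). Neither gene's groups overlapped, and mean levels in T1-like nuclei were 414 CPM for Slc17a7 and 17.6 CPM for Slc17a6. Of 49 vesicle release genes tested, 11 (22.4%) were called higher in ET1-like and 5 (10.2%) higher in ET4-like nuclei, against 7.92% and 6.35% of all genes tested, with a median log2 fold change of 0.21 against -0.01 for all genes. The active zone scaffold gene Rims1 had 2795, 3061 and 3620 CPM against 665, 664 and 760.1 CPM (log2 fold change 2.37 ± 0.10 (SE), adjusted p = 6.9e-17), and Rims2, Rims3 and Erc2 of the same scaffold were on its side at 1.26, 2.27 and 2.16. Among the synaptotagmins, calcium sensors of release, Syt9 (2.56) and Syt7 (1.82) were higher in ET1-like nuclei, and Syt16 (-1.75), Syt5 (-1.53) and Syt13 (-1.52) in ET4-like nuclei. Syt1, the main fast sensor, was not called, with 4443 ± 114 CPM (SD, n = 3) in ET1-like and 2834 ± 39.8 CPM in ET4-like nuclei.

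Ionotropic glutamate receptors carry fast excitation, and their auxiliary subunits set gating and surface number. Of 29 tested, 9 (31.0%) were called higher in ET4-like nuclei, against 6.35% of all genes tested, and 1 (3.45%) in ET1-like nuclei, below the 7.92% of all genes. Grik4 was left out because it is an ET4 marker. Shisa6, which codes for an AMPA receptor auxiliary subunit and is among the shared external tufted markers, had 509.7, 702 and 252 CPM in ET1-like and 4185, 4548 and 4412 CPM in ET4-like nuclei (log2 fold change -3.06 ± 0.16 (SE), adjusted p = 9.7e-15), and 8.61 CPM on average in T1-like nuclei. Cacng3, which codes for another such subunit, had 12.6, 12.3 and 4.37 CPM against 122, 131 and 102 CPM (log2 fold change -3.36 ± 0.17 (SE), adjusted p = 7.0e-15). The reverse held for its relative Cacng5, with 118, 95.9 and 97.7 CPM against 14.8, 19.2 and 21 CPM (log2 fold change 2.68 ± 0.16 (SE), adjusted p = 9.6e-14). The pore subunit gene Gria3 was higher in ET4-like nuclei (-1.84 ± 0.12), as were the NMDA receptor genes Grin2a (-1.10 ± 0.10) and Grin3a (-1.95 ± 0.36). Gria4 was not called, with 5782 ± 379 CPM in ET1-like and 7060 ± 633 CPM in ET4-like nuclei (SD, n = 3). Gsg1l (-2.26 ± 0.53) rested on mouse 2, without which its log2 fold change was -1.54 and it was not called. Without mouse 3 a second gene was called higher in ET1-like nuclei.

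Metabotropic glutamate receptors act through G proteins. Of 7 tested, 3 (42.9%) were called higher in ET1-like and 1 (14.3%) in ET4-like nuclei, against 7.92% and 6.35% of all genes tested. Grm7, a presynaptic group III receptor, had 4428, 4347 and 4705 CPM in ET1-like and 379, 411 and 657 CPM in ET4-like nuclei (log2 fold change 3.46 ± 0.12 (SE), adjusted p = 3.2e-18). Grm8 had 652, 546 and 559 CPM against 145, 128 and 169.8 CPM (log2 fold change 2.20 ± 0.10 (SE), adjusted p = 9.8e-16), and Grm4 16.2, 10.5 and 9.23 CPM against 1.59, 3.08 and 0.699 CPM (log2 fold change 2.61 ± 0.42 (SE), adjusted p = 9.8e-06). These 3 genes belong to group III. Grm2 was called higher in ET4-like nuclei (log2 fold change -1.24 ± 0.46 (SE), adjusted p = 0.036), but not without mouse 1 (-1.30), without mouse 3 (-0.95), without the mouse block (-1.30) or in DESeq2 (-1.55). Its mean was 34.8 CPM in the 2 largest inhibitory clusters, above that of ET4-like nuclei (7.69 CPM).

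Receptors for GABA and glycine, the inhibitory transmitters of the bulb, differed in subunits. Of 19 tested, 10 (52.6%) were called higher in ET4-like and 3 (15.8%) in ET1-like nuclei, against 6.35% and 7.92% of all genes tested, and the median log2 fold change was -1.001. The glycine receptor subunit gene Glra2 had 4.04, 3.79 and 1.46 CPM in ET1-like and 60.6, 37.5 and 44.7 CPM in ET4-like nuclei (log2 fold change -3.54 ± 0.25 (SE), adjusted p = 5.0e-12), and Glra3 3.59, 5.92 and 0.972 CPM against 73, 43.6 and 53.8 CPM (log2 fold change -3.45 ± 0.27 (SE), adjusted p = 2.7e-11). Glra2 was also at 216 CPM on average in ET2-like nuclei, and Glra3 at 2.98 CPM. Among the alpha subunits of the GABA-A receptor Gabra2 (-2.05) was higher in ET4-like and Gabra3 (1.31) and Gabra4 (1.29) were higher in ET1-like nuclei. Gabrb1 (-2.03) and Gabrg1 (-2.35) were on the ET4-like side, and Gabrg3 (1.26 ± 0.27) on the ET1-like side, where it was not called without mouse 2 (0.93). Gabrg1 was at 13.6 CPM in the 2 largest inhibitory clusters, near its mean of 13.1 CPM in ET4-like nuclei. Gabrg3 and Gabra4 were at 279 and 98.5 CPM there, above their ET1-like means of 17.7 and 18.8 CPM. The GABA-B receptor gene Gabbr2 and its auxiliary genes Kctd8 and Kctd16 were higher in ET4-like nuclei at -1.001, -1.13 and -1.20, and Gabbr1 was not called (0.22 ± 0.10). Gabbr2 lay at the 2-fold limit. The number of members called on the ET4-like side was 9 under RLE size factors, another scaling, and also 9 without the mouse block. After leaving out every nucleus with a UMI of Gad1, Gad2 or Slc32a1, 8 members were called higher in ET4-like and 1 in ET1-like nuclei, and Gabra4 was not called (0.82).

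Neuromodulator and peptide genes were split between the types. The serotonin receptor gene Htr2a had 64.6, 48.2 and 81.1 CPM in ET1-like and 5.98, 5.13 and 9.08 CPM in ET4-like nuclei (log2 fold change 3.45 ± 0.19 (SE), adjusted p = 3.9e-14). The muscarinic receptor gene Chrm2 had 61, 65.3 and 58.3 CPM against 6.38, 14.9 and 11.9 CPM (log2 fold change 2.62 ± 0.19 (SE), adjusted p = 1.3e-11), and the histamine receptor gene Hrh2 was higher on the same side (1.42 ± 0.15). Chrm2 was at 461 CPM in the 2 largest inhibitory clusters, above its mean of 61.6 CPM in ET1-like nuclei. The adrenergic receptor genes Adra1a (-1.67 ± 0.21) and Adrb1 (-1.28 ± 0.17) and the nicotinic subunit gene Chrna7 (-1.24 ± 0.23) were higher in ET4-like nuclei, so that 3 of 17 members tested (17.6%) were called in each direction, against 7.92% and 6.35% of all genes tested; without mouse 3 the number on the ET4-like side was 5. Chrna7 was not called without nuclei that held an inhibitory UMI (-0.88) or with nuclei thinned to 5000 UMIs (-0.94), and its mean was 23.2 CPM in the 2 largest inhibitory clusters, near that of ET4-like nuclei (26.4 CPM). In the same clusters Adra1a and Oprm1 were at 264 and 235 CPM, above their means of 37.8 and 62.1 CPM in ET4-like nuclei, and both kept their direction and call without nuclei that held an inhibitory UMI (-1.30 and -2.43). Of the peptide receptors, Npy1r had 29.2, 16.5 and 31.1 CPM against 4.39, 4.96 and 11.9 CPM (log2 fold change 2.08 ± 0.27 (SE), adjusted p = 4.4e-07), Npy5r was on its side (2.21 ± 0.48), and the opioid receptor gene Oprm1 had 11.2, 17.1 and 13.1 CPM against 77, 61.3 and 48.2 CPM (log2 fold change -1.92 ± 0.18 (SE), adjusted p = 1.7e-09). Of 9 peptide receptors tested, 2 (22.2%) were called higher in ET1-like and 1 (11.1%) in ET4-like nuclei, against 7.92% and 6.35% of all genes tested. The 2 numbers were 2 and 3 under library-size scaling, 3 and 1 without mouse 1, 2 and 2 without mouse 2, and 3 and 2 without mouse 3. Of 23 neuropeptide and granin genes 3 (13.04%) were called higher in ET1-like and 4 (17.4%) in ET4-like nuclei, against 7.92% and 6.35% of all genes tested. Neuromedin B (Nmb) had 67.3, 39.7 and 30.1 CPM against 429, 188 and 238 CPM (log2 fold change -2.38 ± 0.12 (SE), adjusted p = 4.6e-15), and Vgf, a granin-like precursor, 9.87, 3.95 and 2.92 CPM against 53, 26.9 and 38.4 CPM (log2 fold change -2.61 ± 0.24 (SE), adjusted p = 1.1e-09). Cartpt was higher on the same side (-1.55 ± 0.28). Adcyap1, the precursor of PACAP, had 31, 16.8 and 33.5 CPM against 5.98, 3.59 and 13.3 CPM (log2 fold change 2.17 ± 0.26 (SE), adjusted p = 1.2e-07), and Chgb and Nppc were on its side (1.52 ± 0.10 and 2.78 ± 0.54).

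Potassium channels set firing threshold and spike shape. Of 49 tested, 15 (30.6%) were called higher in ET1-like and 5 (10.2%) in ET4-like nuclei, against 7.92% and 6.35% of all genes tested, with a median log2 fold change of 0.32, and 13 against 8 under library-size scaling. Kcns2, a modulatory subunit, had 43.1, 33.1 and 44.2 CPM in ET1-like and 9.17, 7.36 and 4.89 CPM in ET4-like nuclei (log2 fold change 2.55 ± 0.22 (SE), adjusted p = 2.1e-10), Kcnh5 52, 43.9 and 50.5 CPM against 6.38, 13.2 and 6.99 CPM (log2 fold change 2.46 ± 0.22 (SE), adjusted p = 4.4e-10), and the leak channel gene Kcnk9 12.6, 11.5 and 13.6 CPM against 0.797, 2.57 and 1.4 CPM (log2 fold change 2.90 ± 0.42 (SE), adjusted p = 2.2e-06). Kcnh5 was at 308 CPM in the 2 largest inhibitory clusters, above its mean of 48.8 CPM in ET1-like nuclei. Kcnma1, the pore of the BK channel, was higher in ET1-like nuclei with 1082, 955 and 1099 CPM against 404, 369 and 363 CPM (log2 fold change 1.65 ± 0.09 (SE), adjusted p = 5.6e-14), the opposite direction to its auxiliary gene Kcnmb2, which is not in the list and is not counted in it. Kcnh7, an ERG-type channel, was much higher in ET4-like nuclei with 830.5, 1098 and 464 CPM against 5779, 6102 and 4788 CPM (log2 fold change -2.68 ± 0.12 (SE), adjusted p = 7.2e-16). Dpp10 (-2.57 ± 0.14) and Kcnip4 (-1.55 ± 0.12), auxiliary subunits of Kv4 channels, were on the same side, while the Kv4 pore genes were Kcnd3, higher in ET1-like nuclei (2.24 ± 0.20), and Kcnd2, which was not called (-0.90 ± 0.10). Kcna5 had 2.69, 3.62 and 1.94 CPM against 45.5, 20.4 and 23.8 CPM (log2 fold change -2.95 ± 0.30 (SE), adjusted p = 7.2e-09). Kcnip4 alone had 9494, 9945 and 6947 CPM in ET1-like and 24638, 32436 and 31012 CPM in ET4-like nuclei, and was among the 6 genes with most UMIs in each of the 6 libraries.

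Of 27 sodium and calcium channel genes tested, 6 (22.2%) were called higher in ET1-like nuclei, against 7.92% of all genes tested, and 1 (3.70%) in ET4-like nuclei, the latter below the 6.35% of all genes, and 4 and 3 under library-size scaling; without mouse 2 the number on the ET4-like side was 2. Cacnb4, a calcium channel beta subunit, had 1507, 1139 and 1294 CPM in ET1-like and 236, 255 and 282 CPM in ET4-like nuclei (log2 fold change 2.53 ± 0.11 (SE), adjusted p = 1.8e-16), and Scn9a, a sodium channel pore, 144, 163 and 180.3 CPM against 53.8, 48.9 and 61.5 CPM (log2 fold change 1.77 ± 0.11 (SE), adjusted p = 5.4e-13). Low-voltage-activated (T-type) calcium channels went both ways. Cacna1g, which the study lists as a T1 marker, had 12.1, 9.87 and 12.6 CPM against 1.2, 2.4 and 0 CPM (log2 fold change 2.94 ± 0.46 (SE), adjusted p = 8.6e-06), and Cacna1i had 19.7, 27.6 and 7.77 CPM against 230.1, 202 and 203 CPM (log2 fold change -3.20 ± 0.17 (SE), adjusted p = 1.4e-14). Cacna1g was at 42.9 CPM in the 2 largest inhibitory clusters, above its mean of 11.5 CPM in ET1-like nuclei. Of 14 hyperpolarization-activated (HCN) and TRP channel genes, 2 (14.3%) were called higher in ET1-like and 5 (35.7%) in ET4-like nuclei, against 7.92% and 6.35% of all genes tested. Trpc7, a close relative of Trpc6, had 68.6, 67.1 and 25.8 CPM against 776, 645 and 609.9 CPM (log2 fold change -3.44 ± 0.14 (SE), adjusted p = 8.2e-17). Trpc4, Trpc5 and Trpm3 were on the same side (-1.25, -1.05 and -1.07). Hcn4 had 24.2, 15.1 and 17 CPM against 4.78, 3.08 and 5.59 CPM (log2 fold change 2.33 ± 0.30 (SE), adjusted p = 4.3e-07).

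**Figure D4:**
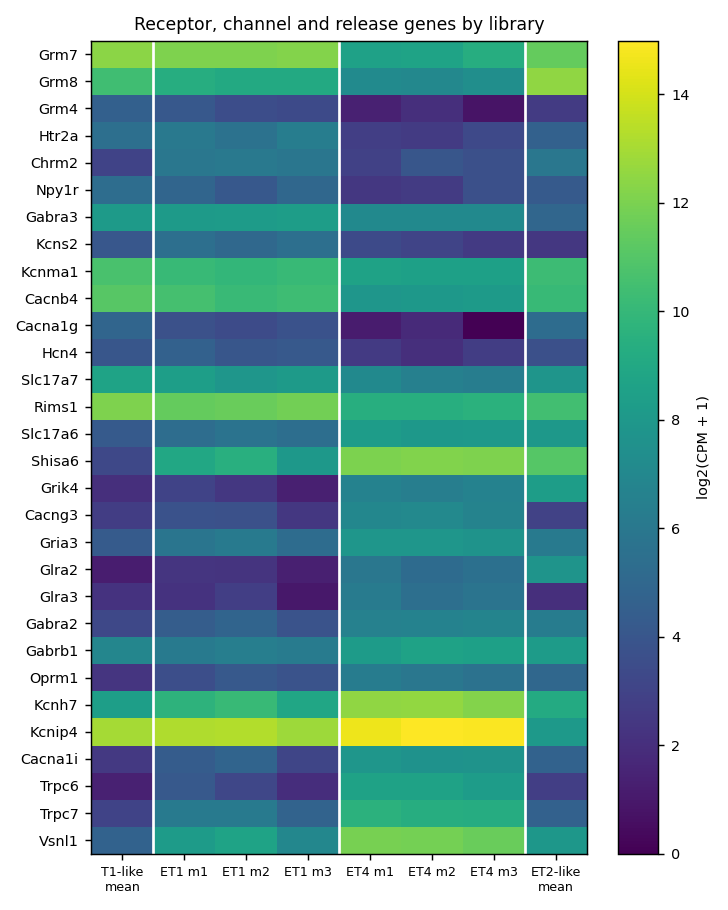
Heat map of log2(CPM + 1) of 30 receptor, channel and release genes, the last being the calcium sensor gene Vsnl1, in the 6 libraries (m1 to m3 are mice 1 to 3), with the means of T1-like and ET2-like nuclei beside them. The 3 libraries of a type have like colours, and Trpc6 is lighter in the ET4-like libraries, at 402, 392 and 316 CPM, than in the other columns.

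Calcium-binding genes were mostly on the ET4-like side among those called. Vsnl1, the neuronal calcium sensor visinin-like 1, had 297, 408 and 123 CPM in ET1-like and 3912, 3667 and 3056 CPM in ET4-like nuclei (log2 fold change -3.60 ± 0.16 (SE), adjusted p = 3.9e-16). Necab1 had 15.3, 14.8 and 4.37 CPM against 122, 108 and 99.2 CPM (log2 fold change -2.98 ± 0.18 (SE), adjusted p = 2.7e-13), and Caln1 4.49, 4.28 and 4.37 CPM against 37.5, 37.5 and 41.2 CPM (log2 fold change -2.94 ± 0.24 (SE), adjusted p = 6.7e-11). Necab1 was at 162 CPM in the 2 largest inhibitory clusters, above its mean of 110 CPM in ET4-like nuclei. Ryr1, a calcium release channel of internal stores, was higher in ET1-like nuclei with 40.4, 36.4 and 45.2 CPM against 3.59, 5.99 and 4.19 CPM (log2 fold change 3.16 ± 0.24 (SE), adjusted p = 1.5e-11), and had a mean of 179.7 CPM in T1-like nuclei. Of 35 tested, 5 (14.3%) were called higher in ET4-like nuclei, against 6.35% of all genes tested, and 1 (2.86%) in ET1-like nuclei, the latter below the 7.92% of all genes. The former number was 8 without mouse 1 and also under library-size scaling.

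Adhesion and guidance genes were called in both directions. Of 35 cadherins and protocadherins tested, 16 (45.7%) were higher in ET1-like and 5 (14.3%) in ET4-like nuclei, against 7.92% and 6.35% of all genes tested, with a median log2 fold change of 0.78 (14 against 5 under library-size scaling; 14 against 3 without mouse 2). Cdh13, a cadherin held by a lipid anchor, had 159.7, 88 and 98.1 CPM in ET1-like and 5.98, 9.92 and 11.2 CPM in ET4-like nuclei (log2 fold change 3.77 ± 0.20 (SE), adjusted p = 1.4e-14), and Fat4 47.6, 44.9 and 37.4 CPM against 12.4, 10.4 and 4.19 CPM (log2 fold change 2.38 ± 0.21 (SE), adjusted p = 2.4e-10). Cdh6, Cdh8, Cdh11, Cdh20 and Pcdh19 were on the same side at 2.22, 2.16, 1.88, 1.84 and 2.64. Cdh4, which encodes R-cadherin, was higher in ET4-like nuclei with 327, 363 and 159 CPM against 3183, 2891 and 2768 CPM (log2 fold change -3.24 ± 0.14 (SE), adjusted p = 1.8e-16), and its mean in T1-like nuclei was 7.12 CPM. Cdh4 means were 759, 537, 381 and 298 CPM in ET2-like, M3-like, M1-like and M2-like nuclei, against 283 CPM in ET1-like nuclei. The dachsous cadherin genes Dchs1 (-1.97 ± 0.35) and Dchs2 (-2.00 ± 0.48) were on its side, and Dchs2 was not called without mouse 2 (-1.29). Pcdh15 was not called, with 4640 ± 231 CPM against 3208 ± 354 CPM (SD, n = 3).

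Of 63 synaptic adhesion genes 15 (23.8%) were called higher in ET1-like and 6 (9.52%) in ET4-like nuclei, against 7.92% and 6.35% of all genes tested (12 against 9 under library-size scaling). Cntnap2 had 2164, 2320 and 2880 CPM in ET1-like and 276, 304 and 316 CPM in ET4-like nuclei (log2 fold change 3.22 ± 0.10 (SE), adjusted p = 5.3e-19), Kirrel3 4377, 3916 and 4488 CPM against 738, 769 and 851 CPM (log2 fold change 2.63 ± 0.10 (SE), adjusted p = 2.1e-17), and Lrrc4c, a postsynaptic netrin-G ligand, 1160, 1034 and 1177 CPM against 189, 226 and 231 CPM (log2 fold change 2.57 ± 0.10 (SE), adjusted p = 5.1e-17). Nlgn1, Nrxn3 and Ptprd were also higher in ET1-like nuclei (2.27, 2.34 and 1.42). The contactin gene Cntn5 had 114, 121 and 113 CPM against 1300, 1385 and 1250 CPM (log2 fold change -3.31 ± 0.10 (SE), adjusted p = 2.5e-19), and the immunoglobulin superfamily genes Sdk2 (-3.03 ± 0.22), Dscam (-2.43 ± 0.19) and Sdk1 (-1.66 ± 0.14) were also higher in ET4-like nuclei. Cntn5 means were 2854.5, 2980.5, 1457 and 1439 CPM in ET2-like, M1-like, M2-like and M3-like nuclei, above the ET4-like 1312 CPM. Its mean was 372 CPM in T1-like nuclei. Dscam was at 807 CPM in the 2 largest inhibitory clusters, above its mean of 224 CPM in ET4-like nuclei. Of 50 axon guidance genes 10 (20%) were higher in ET1-like and 5 (10%) in ET4-like nuclei, against 7.92% and 6.35% of all genes, and 8 in each under library-size scaling. Beside Sema3a those on the ET1-like side included the semaphorin receptor gene Plxna4, with 299.7, 315 and 353 CPM against 49.4, 38.5 and 54.5 CPM (log2 fold change 2.99 ± 0.11 (SE), adjusted p = 1.5e-17), and Ntng1, which encodes a ligand of Lrrc4c, with 689.6, 817 and 1039 CPM against 138, 150.1 and 145 CPM (log2 fold change 2.71 ± 0.11 (SE), adjusted p = 2.7e-17). Those higher in ET4-like nuclei included ephrins and their receptors. Epha10 had 26.5, 27.5 and 17.5 CPM against 195, 227 and 240.3 CPM (log2 fold change -2.98 ± 0.14 (SE), adjusted p = 6.0e-16), Ephb1 5.38, 6.25 and 2.43 CPM against 32.7, 37.8 and 33.5 CPM (log2 fold change -2.61 ± 0.25 (SE), adjusted p = 1.8e-09), and Efnb3 37.7, 24.4 and 16 CPM against 193, 123 and 115 CPM (log2 fold change -2.26 ± 0.13 (SE), adjusted p = 1.1e-13). Efna5 was on the ET1-like side (1.30 ± 0.10), and Epha5 was not called (0.94 ± 0.09).

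Growth factors and secreted ligands were likewise divided. Of 60 tested, 21 (35%) were called higher in ET1-like and 10 (16.7%) in ET4-like nuclei, against 7.92% and 6.35% of all genes tested (18 against 14 under library-size scaling). Reln, a secreted glycoprotein of mitral and tufted cells, had 711, 711 and 827 CPM in ET1-like and 58.6, 70.5 and 106 CPM in ET4-like nuclei (log2 fold change 3.49 ± 0.12 (SE), adjusted p = 1.0e-18). Kitl, the ligand of the receptor Kit, had 272, 195 and 247 CPM against 26.3, 28.7 and 49.6 CPM, and the neurotrophin receptor gene Ntrk3 was higher on the same side (2.28 ± 0.11). Fam19a3 had 133 UMIs in ET1-like and 2 in ET4-like nuclei, a ratio of 62.8 per total UMIs with an exact 95% counting interval of 17.04 to 524. Its relative Fam19a1 went the other way, with 9.87, 8.06 and 1.46 CPM against 76.6, 72.9 and 70.6 CPM (log2 fold change -3.22 ± 0.23 (SE), adjusted p = 4.9e-12). Inhbb, an activin subunit, and Pdgfd were also higher in ET4-like nuclei (-3.54 ± 0.52 and -3.30 ± 0.59). Nrg1 was not called (-0.58 ± 0.10). Of 49 matrix and integrin genes 7 (14.3%) were higher in ET1-like and 14 (28.6%) in ET4-like nuclei, against 7.92% and 6.35% of all genes tested. Sparcl1, a secreted synapse-promoting glycoprotein, had 359, 291 and 343 CPM against 57.4, 49.6 and 51.7 CPM (log2 fold change 2.82 ± 0.11 (SE), adjusted p = 1.7e-17). Adamts2 and the proteoglycan gene Spock1 were on its side (2.56 ± 0.35 and 2.26 ± 0.15). Gpc6, a glypican, had 15.3, 17.1 and 32.6 CPM against 92.9, 85.6 and 109.7 CPM (log2 fold change -2.03 ± 0.16 (SE), adjusted p = 3.2e-11), and Lamb1 (-2.55 ± 0.37) and Adamts18 (-3.78 ± 0.57) were also higher in ET4-like nuclei. The sulfotransferase gene Hs6st3 was not called (-0.89 ± 0.10).

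Of 66 neuronal transcription factors tested, 8 (12.1%) were called higher in ET1-like and 10 (15.2%) in ET4-like nuclei, against 7.92% and 6.35% of all genes tested, with Foxo1 and Ets2 left out as ET4 markers. Tshz2, a zinc finger factor, had 435, 373 and 449 CPM in ET1-like and 52.2, 38.2 and 44.7 CPM in ET4-like nuclei (log2 fold change 3.41 ± 0.11 (SE), adjusted p = 5.3e-19). Sox5 had 168, 158 and 149 CPM against 25.1, 26.7 and 22.4 CPM (log2 fold change 2.84 ± 0.13 (SE), adjusted p = 3.9e-16), and Id2, an inhibitor of helix-loop-helix factors, 99.2, 83.4 and 91.8 CPM against 21.1, 24 and 18.9 CPM (log2 fold change 2.22 ± 0.15 (SE), adjusted p = 1.9e-12). In ET4-like nuclei Zbtb16 had 363, 314 and 314 CPM, against 58.8, 61.7 and 75.3 CPM in ET1-like nuclei (log2 fold change -2.16 ± 0.11 (SE), adjusted p = 5.7e-15). The 3 related ETS factors Etv1 (-2.03 ± 0.15), Etv4 (-2.78 ± 0.44) and Etv5 (-1.47 ± 0.16) were all higher in ET4-like nuclei. Nuclear factor I genes were split, with Nfia (1.13 ± 0.23) and Nfib (1.27 ± 0.28) higher in ET1-like and Nfix (-2.26 ± 0.20) higher in ET4-like nuclei. Zbtb20 was not called (-0.47 ± 0.09). Of 26 nuclear receptors 2 (7.69%) were higher in ET1-like nuclei and 3 (11.5%) in ET4-like nuclei, against 7.92% and 6.35% of all genes tested. Pparg had 99.2, 92.5 and 96.2 CPM against 21.5, 19.7 and 21 CPM (log2 fold change 2.40 ± 0.14 (SE), adjusted p = 1.3e-13), Rarb was on its side (1.53 ± 0.26), and the mineralocorticoid receptor gene Nr3c2 had 402, 441 and 342 CPM against 1044, 1028 and 903 CPM (log2 fold change -1.14 ± 0.09 (SE), adjusted p = 6.1e-11). Thrb, a thyroid hormone receptor gene, was also higher in ET4-like nuclei (-1.46 ± 0.31), and Rora was not called (0.78 ± 0.09). Thrb had 9.97, 13.9 and 33.5 CPM in ET4-like nuclei, highest in mouse 3. Its mean there of 19.1 CPM lay below the 27.8 CPM of the 2 largest inhibitory clusters. Pparg was at 229 CPM in those clusters, above its ET1-like mean of 95.9 CPM. In a test against the 2-fold limit Rarb, Thrb and Nr3c2 were not called.

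Of 12 regulators that the study named for tufted types on these same samples, and which are therefore no independent evidence, 2 (16.7%) were higher in ET1-like and 3 (25%) in ET4-like nuclei, against 7.92% and 6.35% of all genes tested. Cux2, a homeodomain factor, had 835, 688 and 743 CPM against 273, 244 and 321 CPM (log2 fold change 1.64 ± 0.10 (SE), adjusted p = 1.5e-13), and the corepressor gene Rcor1 214, 195 and 192 CPM against 76.2, 69.3 and 78.9 CPM (log2 fold change 1.62 ± 0.11 (SE), adjusted p = 7.7e-13). Hmgb3 was higher in ET4-like nuclei (-1.44 ± 0.19), as were Fos and Junb. Cux1 (0.18 ± 0.09), Bcl11a (0.20 ± 0.09), Esrrg (-0.66 ± 0.10) and Ppargc1a (-0.71 ± 0.09) were not called. Without the 2-fold limit, 7 of the 12 had an adjusted p under 0.05 on the ET4-like side and 2 on the ET1-like side.

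Among genes that neurons switch on with activity, 7 of 24 tested (29.2%) were called higher in ET4-like and 2 (8.33%) in ET1-like nuclei, against 6.35% and 7.92% of all genes, with a median log2 fold change of -0.49. Fos had 2.69, 15.6 and 11.7 CPM in ET1-like and 23.9, 33 and 53.1 CPM in ET4-like nuclei (log2 fold change -1.54 ± 0.25 (SE), adjusted p = 1.1e-05). Junb had 14.4, 20.2 and 7.77 CPM against 46.3, 49.1 and 49.6 CPM (log2 fold change -1.49 ± 0.20 (SE), adjusted p = 7.8e-07), and the orphan receptor gene Nr4a1 4.94, 8.06 and 6.8 CPM against 21.1, 22.6 and 34.2 CPM (log2 fold change -1.67 ± 0.26 (SE), adjusted p = 5.9e-06). The groups did not overlap for these 3 genes. Sik1, a salt-inducible kinase, was on their side (-1.77 ± 0.29). The exceptions were Rgs4, a brake on G protein signaling, with 39.9, 25 and 22.4 CPM against 6.38, 5.99 and 8.38 CPM (log2 fold change 2.29 ± 0.25 (SE), adjusted p = 2.0e-08), and Nptx2 (1.03 ± 0.19), which lay at the 2-fold limit and was not called in 7 of the 15 alternatives, among them leaving out mouse 2 (0.91) and library-size scaling (0.84). Homer1 was not called (-0.46 ± 0.11). Fos, Junb and Nr4a1 were at 46.4, 133 and 60.9 CPM in the 2 largest inhibitory clusters, above their ET4-like means of 36.7, 48.3 and 26.0 CPM, and all 3 were still called without nuclei that held an inhibitory UMI (-1.17, -1.73 and -1.99).

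The start regions of activity-induced genes often hold the half-site TGACG of the cAMP response element, bound by CREB. In the RefSeq windows this half-site, on either strand, was held by all 5 of the 7 genes higher in ET4-like nuclei that had a window, by 14 of 19 such genes among all those tested in the list (73.7%), by 37.0% of all tested genes and by 23.0% of all 27025 genes with a window. Among all genes called, it was held by 173 of 527 (32.8%) higher in ET4-like and 152 of 634 (24.0%) higher in ET1-like nuclei. Both shares lay below that of all tested genes. The windows of Fos (chr12:85473640-85473939, plus strand, GRCm38.p6, 2 half-sites) and Nr4a1 (chr15:101266596-101266895, plus strand, 4 half-sites) show them in capitals, as TGACG or its reverse complement CGTCA. A match to these letters is no proof of a bound site.
Fos: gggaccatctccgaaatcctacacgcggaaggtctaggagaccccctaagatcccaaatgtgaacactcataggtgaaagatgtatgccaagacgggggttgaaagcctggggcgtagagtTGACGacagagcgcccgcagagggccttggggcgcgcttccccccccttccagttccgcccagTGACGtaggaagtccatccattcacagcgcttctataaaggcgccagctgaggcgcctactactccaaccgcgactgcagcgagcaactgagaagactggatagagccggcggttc
Nr4a1: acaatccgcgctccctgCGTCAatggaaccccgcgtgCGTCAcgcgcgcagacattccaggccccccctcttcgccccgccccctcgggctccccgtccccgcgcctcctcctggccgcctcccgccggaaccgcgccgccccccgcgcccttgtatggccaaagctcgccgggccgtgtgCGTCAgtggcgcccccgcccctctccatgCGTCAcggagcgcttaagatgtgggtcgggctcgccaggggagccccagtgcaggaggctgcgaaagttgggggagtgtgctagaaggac

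Oxidative phosphorylation genes, the nuclear-encoded parts of the respiratory chain, ATP synthase and citrate cycle, all had log2 fold changes below 0. Of 83 entries tested (82 symbols, Atp5o being on 2), 17 (20.5%) were called higher in ET4-like nuclei, against 6.35% of all genes tested, and 0 in ET1-like nuclei, where no member had a log2 fold change above 0 and DESeq2 also called 0; 75 had an adjusted p under 0.05, and the median log2 fold change was -0.82. Summed over the list, the level was 5676, 6369 and 4571 CPM in ET1-like and 12820, 11460 and 8841 CPM in ET4-like nuclei, so that it was higher in ET4-like nuclei in each mouse. Atp5b, the catalytic subunit of ATP synthase, had 167, 185 and 141 CPM against 551, 445 and 422 CPM (log2 fold change -1.32 ± 0.10 (SE), adjusted p = 1.7e-11). Cox6c, of cytochrome c oxidase, had 96.8 ± 16.1 CPM against 282 ± 94.5 CPM (SD, n = 3) (log2 fold change -1.31 ± 0.11 (SE), adjusted p = 1.2e-10), and Uqcr11, of complex III, 33.2, 38.2 and 12.6 CPM against 100.1, 92.1 and 54.5 CPM (log2 fold change -1.34 ± 0.15 (SE), adjusted p = 4.4e-08). Atp5a1 was not called (-0.59 ± 0.09). Many members lay close to the 2-fold limit, and the count was 43 with library-size scaling, 32 without mouse 2, 31 without nuclei that held an inhibitory UMI, 12 without mouse 1 and 2 in a test against that limit itself. Uqcr11 was not called with nuclei thinned to 5000 UMIs (-0.97). The share of mitochondrial UMIs of the median nucleus moved with this result, at 0.040%, 0.056% and 0.026% in ET1-like and 0.089%, 0.120% and 0.061% in ET4-like nuclei. The nuclear RNA Malat1 took 7.45%, 8.52% and 9.60% of UMIs in ET1-like and 5.27%, 7.24% and 7.21% in ET4-like nuclei, and Meg3 0.836%, 0.984% and 1.00% against 0.530%, 0.668% and 0.668%. The part of either in the result was not tested.

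Estrogen-related receptors, among them Esrra and Esrrg, regulate many of these genes through the element AAGGTCA. It was present on either strand in the windows of 9 of 69 tested list genes (13.04%), and of 2 of 14 with a window among the 17 called, Atp5e and Atp5g3. The share was 3.84% over all tested genes and 5.38% over all genes with a window. Neither Esrra (-0.43 ± 0.12) nor Esrrg passed the 2-fold limit of a call, and both had a log2 fold change below 0, on the ET4-like side. The window of Atp5g3 (chr2:73911277-73911576, minus strand, GRCm38.p6), which codes for the ATP synthase c subunit and had a log2 fold change of -1.14 ± 0.10, has the element in capitals as its reverse complement TGACCTT. The ROR element TAGGTCA and the FOXO element TGTTTAC were in none of these 14 windows.
Atp5g3: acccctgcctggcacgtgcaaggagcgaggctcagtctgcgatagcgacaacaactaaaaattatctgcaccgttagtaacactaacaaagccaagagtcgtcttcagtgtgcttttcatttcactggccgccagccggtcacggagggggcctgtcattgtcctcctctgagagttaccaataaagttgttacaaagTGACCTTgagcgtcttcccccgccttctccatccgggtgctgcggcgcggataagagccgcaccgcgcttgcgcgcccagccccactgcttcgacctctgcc

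Set beside the other types, genes of the ET1-like side were often carried by T1-like nuclei too. Of the 929 genes higher in ET1-like than in ET4-like nuclei, 545 (58.7%) had a mean CPM in T1-like nuclei at or above that of ET1-like nuclei. For the 745 genes higher in ET4-like nuclei, 13 (1.74%) were as high in T1-like as in ET4-like nuclei, and in 523 (70.2%) the T1-like mean was at or below that of ET1-like nuclei. ET2-like nuclei reached the higher mean for 276 (29.7%) and 97 (13.02%) of the respective genes. Grm7, Cntnap2 and Sema3a were at 5438, 4778 and 506 CPM in T1-like nuclei, and Trpc7, Vsnl1 and Cdh4 at 7.03, 24.8 and 7.12 CPM. In ET2-like nuclei Cdh4 was at 759 CPM, above its ET1-like mean of 283 CPM. Trpc7 was at 24.0 CPM there, below its ET1-like mean of 53.8 CPM. The 2128 T1-like nuclei came from the same mice, and these are descriptions of mean levels with no test.

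**Figure D5:**
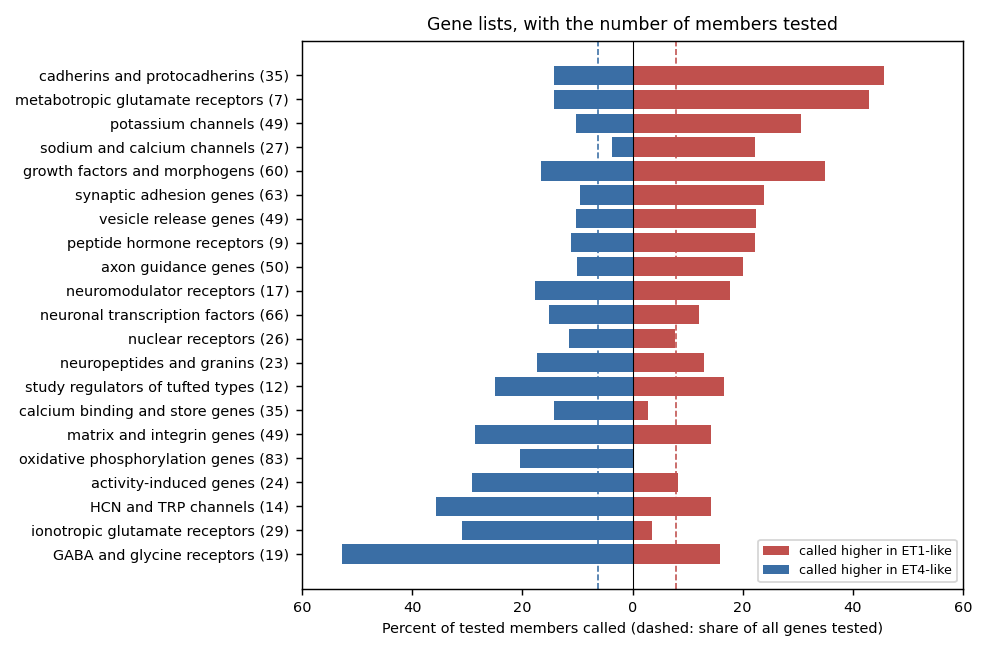
Percent of the tested members of each of 21 gene lists called higher in ET1-like (right) and in ET4-like nuclei (left), with the number tested in brackets and, as dashed lines, the shares of all genes tested (7.92% and 6.35%). Cadherins reach furthest to the right and GABA and glycine receptors furthest to the left, and only oxidative phosphorylation genes have no bar on the right.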

How the data were processed

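Sorted nuclei of 3 mice were profiled with 10x Chromium single-nucleus RNA sequencing. The deposited matrices hold unnormalized UMI counts for each gene in each barcode. The authors used Cell Ranger 3.0.2 and mm10 (GRCm38), per the submitters' processing notes; the annotation release, and whether strand and introns were used, are not given in the sources used here. A deposited table gives the retained nuclei (at least 1000 genes, at most 5% mitochondrial UMIs) with their subclusters, which the authors made in Seurat, and the percent of mitochondrial UMIs, computed by the authors. Its 6 other numeric columns were not used. The table names no types. Doublets were handled by the sort gate alone and no caller was run here. Between mice, 1 barcode was shared among these nuclei.

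Counts were summed per subcluster and mouse and tested with edgeR 4.0.16 in R 4.3.3 (filterByExpr, TMM, quasi-likelihood, type plus mouse, Benjamini-Hochberg over 11730 genes). The SE was taken as the absolute log2 fold change over the square root of the F statistic. CPM, UMIs per total scaled to 1000000, carries no TMM factor. The libraries of a mouse come from 1 animal. Their deviations from the mean of their type correlated at 0.20, 0.21 and 0.16. Correlations between different mice were negative, which taking deviations from a mean of 3 libraries brings about, so that they add nothing on pairing. The 3 mice are separate animals.

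Named genes were the 12 protein-coding genes per direction whose log2 fold change was largest, if called, without overlap between the libraries of the types, with a mean of at least 20 CPM in the higher type and in no marker list; per list, up to 3 called members per direction and the most abundant one not called. Some of the genes so chosen are not reported here. Further list members were named after their values were seen, and so were the promoter windows, the CRE half-site and the adjacent receptor genes. The subclusters and the 21 lists were chosen with earlier results of these data known. Positions are from GENCODE M21 (GRCm38), which matched 31011 of 31055 identifiers, and promoter sequences from RefSeq (GRCm38.p6). In each library a gene at 0 could hold up to 3 UMIs of its total, and intervals cover counting error only. Alternatives were no mouse block, other size factors, DESeq2 1.42.0, other filters, all 9 subclusters in 1 fit, a test against the 2-fold limit, thinning of nuclei or libraries, leaving out nuclei with inhibitory UMIs or the top 5% of UMIs, and leaving out each mouse. Tables and figures were made with Python 3.11.15.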

Additional observations from a re-analysis of the deposited data

How the results depend on the processing

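Genes higher in ET1-like nuclei numbered 929 and those higher in ET4-like nuclei 745. Leaving out 1 mouse gave 933 to 1007 and 727 to 867. In a test against the 2-fold limit (glmTreat) they were 538 and 336. With library size alone they were 724 and 1116, and 849 and 666 in DESeq2, 921 and 732 without the mouse block, 787 and 696 without nuclei that held an inhibitory UMI, and 680 and 546 with nuclei thinned to 5000 UMIs. None of the 1674 genes called changed the sign of its log2 fold change under any of these alternatives in which it was tested. Without the mouse block 901 and 715 of the called genes remained. Of the 149 named genes, Grm2 alone lost its call without the replicate block. The ET1-like share of 45.3% was 53.1% without nuclei that held an inhibitory UMI, a setting that removes by Gad2, itself higher in ET4-like nuclei; leaving out 1 mouse gave 42.0% to 48.1%. Without nuclei that held an inhibitory UMI, members called higher in ET4-like nuclei were 6 growth factors, 9 matrix genes, 2 cadherins and 2 neuropeptides. That setting left out 36.0% to 81.3% of the nuclei of a library and tested 9475 genes, so that fewer members could be called. With every library thinned to 1431471 UMIs, the smallest total, the counts were 860 and 715 of 10660 genes tested.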
